A study of Mus musculus with 3 samples.

Results

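The 10 genes described here are the Toll-like receptors Tlr1, Tlr2, Tlr3, Tlr4, Tlr6, Tlr7 and Tlr9, the receptor-like surface protein Cd180, the transport chaperone Unc93b1 and the signalling adaptor Myd88. They were found by name among the 32285 genes of the tables, and all 10 were present. They were measured in single spleen cells of mice aged 12 to 14 weeks after depletion of T cells with CD3 microbeads. The 3 libraries each pooled cells of 2 conditions, with 3 mice per condition. The control library held male sham-treated and female C57Bl/6 mice, and its labels also give minipumps implanted at 10 weeks and carried for 2 weeks. The Ang II library held C57Bl/6 mice given angiotensin II, a hormone that raises blood pressure, by minipumps implanted at 10 weeks and carried for 2 weeks, with or without 2-HOBA, a scavenger of isolevuglandins. The B6.SLE123 library held mice of the lupus-prone congenic strain B6.SLE123 with or without 2-HOBA, which was started at 7 weeks and given for 6 weeks. Cells carried 1 of 6 hashtags, C0301 to C0306, which no label ties to a condition or a mouse, so the hashtag populations are given singly and none is a labelled replicate. With 1 library per group, strain, treatment, sex and library cannot be told apart in comparisons of whole libraries, and no test across animals was possible.

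Toll-like receptors recognise microbial molecules and, in lupus, the body's own nucleic acids. Tlr3, Tlr7 and Tlr9 sense double-stranded RNA, single-stranded RNA and CpG DNA inside endosomes, to which Unc93b1 carries them, while Tlr1, Tlr2, Tlr4 and Tlr6 sense lipoproteins and lipopolysaccharide at the cell surface. Myd88 links most of these receptors to NF-kB and interferon regulatory factors, and Cd180, held at the surface by Ly86, modulates Tlr4 and B cell responses. In the spleen, B cells and plasmacytoid dendritic cells are known for Tlr7 and Tlr9, and both receptors are central to autoantibody formation in lupus models.

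In the mouse build GRCm38 the members lie on 7 autosomes and the X chromosome. Tlr1 (chr5:64924679-64933563, minus strand) and Tlr6 (chr5:64952031-64960097, minus strand) are neighbours and close paralogs, so a read from a shared stretch of their coding sequence could be lost or misassigned. Tlr9 (chr9:106222598-106226883, plus strand) and Myd88 (chr9:119335934-119341411, minus strand) share a chromosome. Tlr7 (chrX:167304929-167330558, minus strand) is the X-linked member. The others are Tlr2 (chr3:83836272-83841767, minus strand), Tlr3 (chr8:45395665-45411080, minus strand), Tlr4 (chr4:66827584-66930284, plus strand), Cd180 (chr13:102693558-102739629, plus strand) and Unc93b1 (chr19:3935186-3949340, plus strand). The RefSeq promoter table, 250 bases before to 50 after a transcript start on GRCm38.p6, held 10 windows for 7 of the 10 members. Tlr4, Tlr7 and Unc93b1 are named only. Windows of Tlr9 and Cd180, whose levels ran alike across cell classes, and of Tlr1, which differed between the B6.SLE123 and control libraries, are printed 5′ to 3′ along the gene with motif matches in capitals.
Tlr9 (chr9:106222348-106222647, plus strand): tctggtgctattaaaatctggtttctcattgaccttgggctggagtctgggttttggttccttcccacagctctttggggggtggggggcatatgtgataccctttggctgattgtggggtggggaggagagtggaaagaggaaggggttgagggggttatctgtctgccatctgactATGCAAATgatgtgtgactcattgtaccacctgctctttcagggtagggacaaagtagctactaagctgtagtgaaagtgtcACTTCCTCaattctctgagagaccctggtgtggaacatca
Cd180 (chr13:102693297-102693596, plus strand): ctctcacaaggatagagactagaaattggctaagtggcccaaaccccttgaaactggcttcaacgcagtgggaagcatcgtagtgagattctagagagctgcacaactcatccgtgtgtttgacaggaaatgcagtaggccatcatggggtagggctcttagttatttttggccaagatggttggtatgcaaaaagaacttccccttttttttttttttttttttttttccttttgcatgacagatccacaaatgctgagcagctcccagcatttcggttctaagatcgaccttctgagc
Tlr1 (chr5:64933509-64933808, minus strand): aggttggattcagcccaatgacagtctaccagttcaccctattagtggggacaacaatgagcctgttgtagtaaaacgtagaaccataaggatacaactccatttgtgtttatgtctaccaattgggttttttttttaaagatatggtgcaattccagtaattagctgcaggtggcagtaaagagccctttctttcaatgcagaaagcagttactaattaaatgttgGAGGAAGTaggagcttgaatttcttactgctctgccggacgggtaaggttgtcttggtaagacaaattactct
These strings were searched on both strands. GAGGAAGT, a PU.1 site of myeloid and B cells, was found in the windows of Tlr1 at position -23 from the start and of Tlr9 at 10, and in 3.20% of all 32851 windows. The octamer ATTTGCAT, bound by Oct factors in B cells, was found in Tlr9 at -72 and in 1.74% of windows. The PU.1 and octamer matches of Tlr9 lie on the minus strand and do not overlap, and no Cd180 window held either string. A match of letters is a description and says nothing of binding.

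Values are unique molecular identifiers (UMIs) summed over the cells of a class and scaled to 1000000 UMIs of that class (CPM), with an exact Poisson 95% interval that covers counting error only. Each UMI stands for 1 captured molecule whatever the length of the gene. After filtering, 15700 control, 14023 Ang II and 16708 B6.SLE123 cells remained, with medians of 1852, 2842 and 2082 UMIs over all barcodes of each library. Between 304 and 349 barcode sequences of kept cells were shared by any 2 libraries. Cells were sorted into classes by fixed marker lists that hold none of the 10 genes. B cell-like cells numbered 13370 in the control, 11416 in the Ang II and 12998 in the B6.SLE123 library, and 6 of their 10 leading genes were their own markers, among them Cd79a and Ms4a1. Of the 10 leading genes, 6 were own markers in plasmacytoid dendritic cell (pDC)-like, 7 in neutrophil-like and in natural killer cell-like, 4 in monocyte-like, 3 in type 1 conventional dendritic cell-like and 2 in type 2 conventional and in migratory dendritic cell-like cells. Red pulp macrophage-like and monocyte-derived dendritic cell-like cells had 8 and 5 own markers among them but also 3 each of another class, so those names are less firm. Xist was found in 46.6% to 54.9% of the cells of every B6.SLE123 hashtag and in none of the Ang II cells. In the control library it was found in 49.2% to 51.7% of the cells of hashtags C0304 to C0306 and in 0.165% to 0.386% of those of C0301 to C0303.

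Single cells held few molecules of most members. In the control library 54.6% of B cell-like cells had a UMI of Unc93b1 (interval 53.7% to 55.4%) and 25.4% had one of Cd180 (24.7% to 26.2%), against 7.91% and 0.351% of natural killer (NK) cell-like cells, whose median depth of 1692 UMIs was close to the 1760 of B cell-like cells. For Tlr1 and Tlr9 the share was 9.33% and 6.28% of B cell-like cells against 0.176% and 0% of 569 NK cell-like cells. The other members were found in 0.696% to 3.81% of B cell-like and 0% to 5.27% of NK cell-like cells, where the highest was Myd88, which NK cells also use, followed by Tlr4 at 1.05% beside 1.66% in B cell-like cells. The B cell marker Cd79a stood at 3996 CPM in control B cell-like cells and at 28.7 CPM in the control, 35.8 CPM in the Ang II and 54.1 CPM in the B6.SLE123 NK cell-like cells. The neutrophil gene S100a9 stood at 20.4, 301 and 91.6 CPM in the NK cell-like cells of these libraries and at 21.8, 82.7 and 50.8 CPM in their B cell-like cells, so the background of this gene differed between the libraries, and its part in the values below was not tested.

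The nucleic acid sensors followed different cell classes. Over the 3 libraries, Tlr3 was highest in type 1 conventional dendritic cell (cDC1)-like cells at 82.9 CPM (90 UMIs in 290 cells, interval 66.6 to 102). The cDC1-like values were 82.7 CPM in the control, 85.2 in the Ang II and 81.4 in the B6.SLE123 library, so the 3 libraries differed by less than counting error. Marginal zone B-like cells came next among classes with over 3 Tlr3 UMIs, at 14.3 CPM (12.4 to 16.6), and follicular B-like cells held 2.67 CPM (2.27 to 3.12). pDC-like cells had no Tlr3 UMI in 114 cells, which allows up to 6.32 CPM.

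Tlr7 was highest in monocyte-like cells at 83.2 CPM (74.3 to 92.8) and pDC-like cells at 71.7 CPM (49.6 to 100.2), whose intervals overlapped. cDC1-like cells, where Tlr3 was highest, held 2 Tlr7 UMIs, or 1.84 CPM (0.223 to 6.65). Among B cell subsets, Tlr7 stood at 32.3 CPM in marginal zone B-like (29.3 to 35.6), 16.0 CPM in follicular B-like and 9.75 CPM in transitional B-like cells (6.58 to 13.9). Germinal centre B-like cells held 8 Tlr7 UMIs in 704 cells, or 2.01 CPM (0.866 to 3.95). In the B6.SLE123 library, which supplied 579 of these cells, the value was 2.17 CPM beside 17.0 CPM in follicular B-like cells.

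Tlr9 was spread more evenly over B cells. It reached 84.3 CPM in pDC-like cells (60.2 to 115). Red pulp macrophage-like cells held 76.1 CPM (10 UMIs, 36.5 to 140) and monocyte-derived dendritic cell-like cells 57.3 CPM (28 UMIs, 38.1 to 82.9). Among B cells Tlr9 stood at 46.5 CPM in transitional B-like (39.2 to 54.7), 39.9 CPM in marginal zone B-like, 33.1 CPM in follicular B-like and 15.8 CPM in germinal centre B-like cells. Neutrophil-like and NK cell-like cells held 0.317 and 0.328 CPM of Tlr9. Over the 3 libraries together, transitional B-like cells, the youngest B cells of the spleen, thus had a low Tlr7 level. Their Tlr9 level did not differ from that of marginal zone B-like cells beyond counting error. The libraries were not alike. In the control they held 7.58 CPM of Tlr7 (9 UMIs) and 53.9 CPM of Tlr9 (64 UMIs). In the B6.SLE123 library they held 17.6 CPM (15 UMIs), beside 17.0 CPM in follicular B-like cells, and 22.3 CPM (19 UMIs), beside 33.0 CPM in marginal zone B-like cells. Unc93b1, which escorts all of these sensors, was highest in pDC-like cells at 835 CPM (755 to 921), and the next class did not overlap it. It was 592 CPM in marginal zone B-like, 491 CPM in follicular B-like, 291 CPM in germinal centre B-like, 114 CPM in neutrophil-like and 46.0 CPM in NK cell-like cells.

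**Figure D1:**
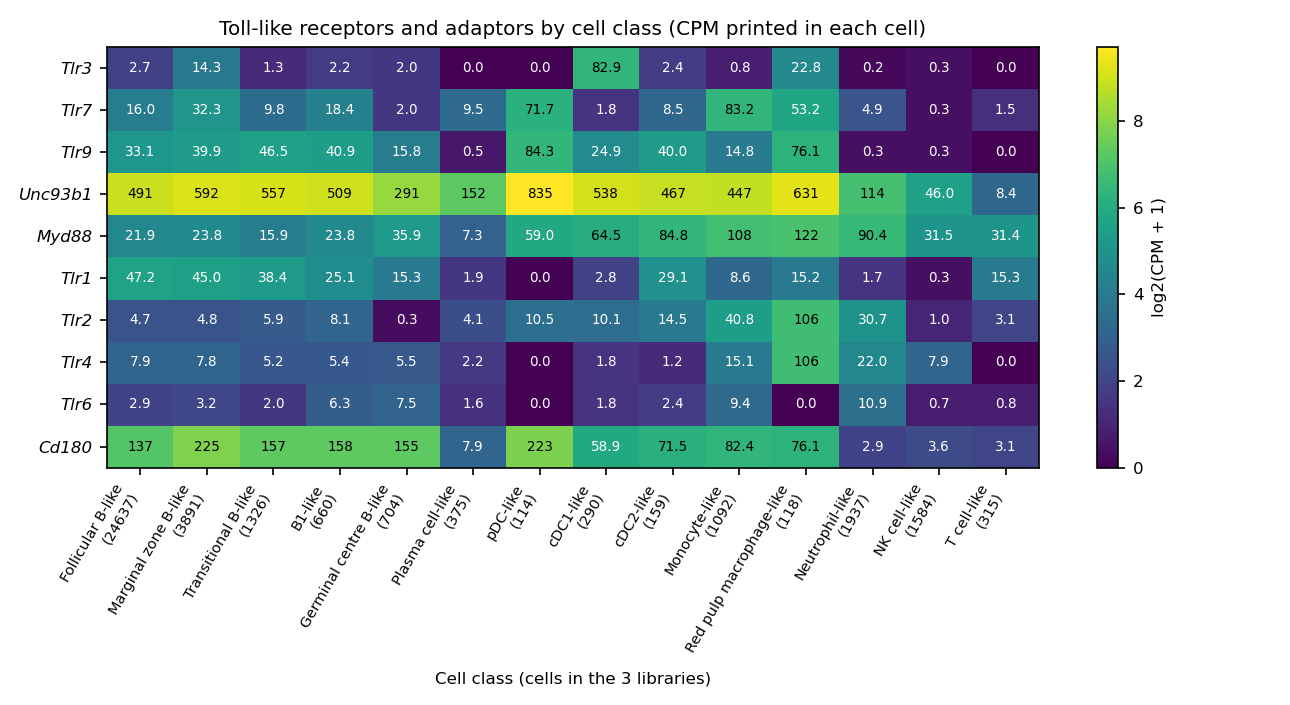
Level of the 10 genes (rows) in 14 marker-gated classes (columns, with the number of cells over the 3 libraries); colour is log2(CPM + 1) and the number in each square is CPM. Tlr3 peaks at 82.9 CPM in cDC1-like cells, Tlr7 at 83.2 CPM in monocyte-like cells and Tlr9 and Unc93b1 at 84.3 and 835 CPM in pDC-like cells.

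The surface receptors differed in their cell classes. Tlr2 stood at 40.8 CPM in monocyte-like cells (34.7 to 47.7) and 30.7 CPM in neutrophil-like cells (26.5 to 35.4), against 4.73 CPM in follicular B-like cells (4.19 to 5.32). Tlr4 stood at 22.0 CPM in neutrophil-like cells (18.5 to 26.0), 15.1 CPM in monocyte-like and 7.86 CPM in follicular B-like cells. Red pulp macrophage-like cells gave 106 CPM of each of Tlr2 and Tlr4, from 14 UMIs each in 118 cells (58.2 to 179). Monocyte-derived dendritic cell-like cells held 32.8 CPM of Tlr2 (18.7 to 53.2) and 38.9 CPM of Tlr4 (23.4 to 60.8), from 16 and 19 UMIs in 224 cells. Tlr6, which pairs with Tlr2, was low throughout, at 10.9 CPM in neutrophil-like (8.50 to 13.8), 9.36 CPM in monocyte-like and 7.52 CPM in germinal centre B-like cells (5.07 to 10.7).

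Tlr1, the other partner of Tlr2, was low in monocyte-like and neutrophil-like cells. It was highest in cells with the monocyte-derived dendritic cell (moDC) markers at 67.6 CPM (33 UMIs, 46.5 to 94.9), and stood at 37.9 CPM in migratory dendritic cell-like and 29.1 CPM in type 2 conventional dendritic cell (cDC2)-like cells. The B6.SLE123 library supplied 198 of the 224 cells with the moDC markers. Tlr1 stood at 47.2 CPM in follicular B-like (45.5 to 49.0) and 45.0 CPM in marginal zone B-like cells and at 8.58 CPM in monocyte-like and 1.74 CPM in neutrophil-like cells. Germinal centre B-like cells held 15.3 CPM of Tlr1 (11.7 to 19.6). Cd180 was the most abundant receptor of B cells, at 225 CPM in marginal zone B-like (217 to 233) and 137 CPM in follicular B-like cells, and pDC-like cells reached 223 CPM (183 to 270). Cells with the moDC markers held 160 CPM of Cd180 (126 to 199). pDC-like cells held no UMI of Tlr1, Tlr4 or Tlr6.

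Plasma cell-like cells held little of the receptors. Cd180 was 7.89 CPM, Tlr9 0.544 CPM (2 UMIs in 375 cells) and Tlr7 9.52 CPM there, and Unc93b1 was 152 CPM. Immunoglobulin and T cell receptor segments took 51.5% of their UMIs. Scaled instead to the UMIs outside those segments, ribosomal protein and mitochondrial genes, Cd180 was 19.6 and Tlr9 1.35 in plasma cell-like cells against 221 and 48.9 in B cell-like cells, while Tlr7 was 23.7 against 25.9. Myd88 was mainly a myeloid transcript, at 137 CPM in cells with the moDC markers, 108 CPM in monocyte-like, 90.4 CPM in neutrophil-like and 21.9 CPM in follicular B-like cells.

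The sensing receptors Tlr3, Tlr7 and Tlr9 as a share of the UMIs of all 8 receptors ordered the classes. It was 59.2% in cDC1-like cells (exact Clopper-Pearson interval 52.1% to 66.1%), 38.7% in monocyte-like (35.7% to 41.9%), 23.2% in marginal zone B-like (22.1% to 24.5%), 20.6% in follicular B-like, 9.75% in germinal centre B-like (7.80% to 12.0%) and 7.31% in neutrophil-like cells. In B cell-like cells the share was 19.1% in the control, 22.7% in the Ang II (21.9% to 23.6%) and 20.5% in the B6.SLE123 library (19.6% to 21.4%). The hashtag populations spread from 16.2% to 22.1%, from 21.3% to 25.6% and from 16.7% to 24.0% in that order, so all 3 ranges overlapped. In pDC-like cells it was 41.0%, 51.7% and 28.8%, from 58 to 66 receptor UMIs per library, and the intervals overlapped.

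**Figure D2:**
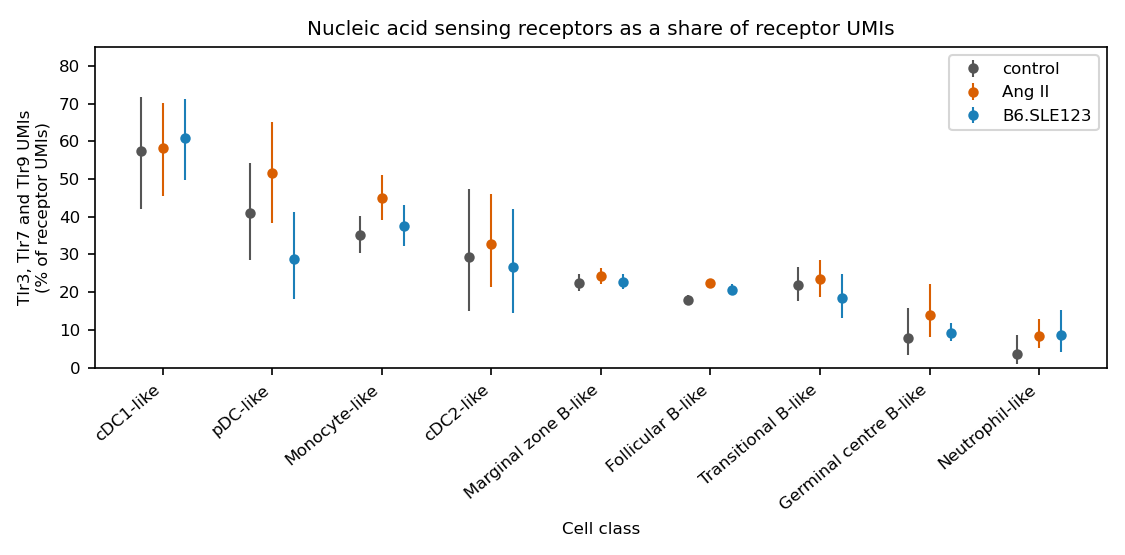
UMIs of Tlr3, Tlr7 and Tlr9 as a percent of the UMIs of 8 receptors (vertical axis) in 9 classes, by library; bars are exact 95% intervals of counting error. The share falls from 59.2% over the 3 libraries in cDC1-like cells to 9.75% in germinal centre B-like and 7.31% in neutrophil-like cells, and the libraries overlap in most classes.

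The question of the B6.SLE123 library is how the lupus-prone strain differs from C57Bl/6. In B cell-like cells the clearest differences were lower Tlr4 and Tlr1, the receptors for lipopolysaccharide and, with Tlr2, for triacylated lipoproteins. The library level of the RNA sensor Tlr7 did not differ beyond counting error, over control hashtags that held 2 levels, the DNA sensor Tlr9 was lower by less than the spread of the hashtags, and the adaptor Myd88 was higher with overlapping hashtags. Of the 10 members, 0 were at least 2-fold higher, against 5.43% of the 11351 genes with at least 50 UMIs in both libraries together, and 1, Tlr4, was at least 2-fold lower, against 1.75%. The 6 B6.SLE123 hashtags all lay below the 6 control hashtags for Tlr4 and Tlr1, or 2 members, against 11.1% of genes, and for 0 members all above, against 9.88%. The counting interval lay above 0 for 2 members, against 27.2% of genes, and below 0 for 5, against 34.4%. The median log2 ratio was -0.09 over the 10 members and -0.05 over all genes tested.

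Tlr4 in B cell-like cells was 9.28, 9.22, 7.37, 6.79, 9.77 and 6.54 CPM in control hashtags C0301 to C0306. In B6.SLE123 hashtags in the same order it was 3.89, 4.09, 3.23, 3.17, 3.92 and 4.06 CPM. Every B6.SLE123 value was under every control value, and the Ang II hashtags, at 8.47 to 11.8 CPM, overlapped those of the control. The libraries held 114 Tlr4 UMIs (3.66 CPM) and 231 (8.32 CPM), a log2 ratio of -1.18 (interval -1.52 to -0.85).

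The lower Tlr4 was seen in follicular B-like cells, and in marginal zone B-like cells the library levels did not differ beyond counting error while the hashtags were spread widely. Follicular B-like cells, the recirculating majority, held 10.9, 10.9, 9.19, 6.17, 8.61 and 7.58 CPM in the control hashtags and 1.76, 1.37, 0.647, 2.62, 3.01 and 2.67 CPM in the B6.SLE123 hashtags, from 165 and 28 UMIs. Their log2 ratio was -2.25 (-2.89 to -1.67), where 1.63% of 10491 genes were at least 2-fold lower. Marginal zone B-like cells, which answer blood-borne antigens quickly, held 6.79 CPM in the control (25 UMIs) and 6.64 CPM in the B6.SLE123 library (34 UMIs), a log2 ratio of -0.03 (-0.82 to 0.77). Their hashtags held 5.81, 6.09, 0, 6.37, 9.97 and 5.84 CPM in the control and 8.64, 9.05, 11.5, 2.84, 5.21 and 5.27 CPM in the B6.SLE123 library. B6.SLE123 hashtags C0304 to C0306 were thus below 5 of the 6 control hashtags, and C0301 to C0303 above at least 5 of them. The difference between the subsets' log2 ratios was 2.22 (1.28 to 3.16, counting error with a normal approximation). Of the 10 members, 3 had such an interval that excluded 0, the others being Tlr3 at -1.07 (-1.85 to -0.28) and Unc93b1 at -0.21 (-0.31 to -0.12), both in the direction of a lower ratio in marginal zone B-like cells. The share over all genes was not computed for this difference, so the count is not read as a result about the members.

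Within the B6.SLE123 library, follicular B-like cells at 1.91 CPM (1.27 to 2.76) were below marginal zone B-like cells at 6.64 CPM (4.60 to 9.28) and germinal centre B-like cells at 6.20 CPM (3.79 to 9.58), with intervals apart. In the control, follicular B-like cells at 9.11 CPM (7.78 to 10.6) and marginal zone B-like cells at 6.79 CPM (4.40 to 10.0) overlapped. NK cell-like cells of the same B6.SLE123 library held 13.2 CPM (12 UMIs in 616 cells) and control NK cell-like cells 5.56 CPM (6 UMIs in 569 cells). Neutrophil-like cells held 17.4 and 25.2 CPM, with a log2 ratio of -0.53 whose interval spanned 0 (-1.25 to 0.20). In the only library with over 20 T cell-like cells, Ang II, 285 of them held no Tlr4 UMI, which allows up to 2.42 CPM beside 10.2 CPM in its B cell-like cells.

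**Figure D3:**
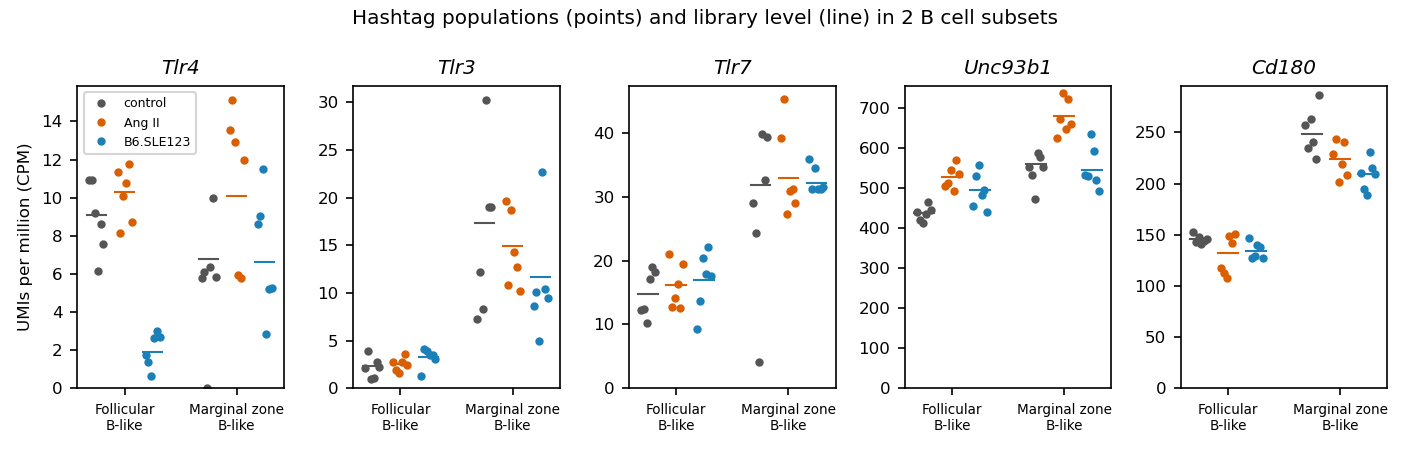
CPM of 5 members in follicular and marginal zone B-like cells; points are the 6 hashtag populations of each library and lines the library's level. For Tlr4 the B6.SLE123 follicular points, 0.647 to 3.01 CPM, lie below the control points, 6.17 to 10.9 CPM, while the marginal zone points overlap.

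Tlr1 in B cell-like cells was 44.6 to 52.7 CPM over the control hashtags, with a median of 48.1, and 29.6 to 34.3 CPM over the B6.SLE123 hashtags, with a median of 31.9. The log2 ratio was -0.60 (-0.72 to -0.48), and -0.47 (-0.62 to -0.31) in follicular B-like cells, where the hashtags again did not overlap, as for 7.26% of genes. In marginal zone B-like cells it was -0.24 with an interval that spanned 0 (-0.55 to 0.07). Tlr2, at 3.60 against 5.40 CPM, had a log2 ratio of -0.59 (-0.95 to -0.22) with overlapping hashtags. Tlr6 and Tlr3 had intervals that spanned 0.

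Tlr7 was 18.2 CPM in B6.SLE123 and 17.7 CPM in control B cell-like cells, a log2 ratio of 0.04 (-0.13 to 0.22). The hashtags ran from 13.6 to 22.0 and from 10.4 to 22.2 CPM, and the interval lay well inside 2-fold. The control level joins 15.6, 14.1 and 10.4 CPM in hashtags C0301 to C0303, where Xist was rare, with 21.0, 21.1 and 22.2 CPM in C0304 to C0306, whereas Xist was common in every B6.SLE123 hashtag. Only 1 B6.SLE123 hashtag lay at or above the lowest of those last 3 values. In marginal zone B-like cells Tlr7 was 32.2 against 31.8 CPM, and in follicular B-like cells 17.0 against 14.7 CPM (log2 ratio 0.21, -0.05 to 0.46). Tlr9 was 27.1 against 32.9 CPM, a log2 ratio of -0.28 (-0.42 to -0.14), with hashtags of 23.7 to 32.6 and 26.1 to 37.3 CPM that overlapped. Transitional B-like cells had the largest Tlr9 ratio among the B subsets tested, 19 UMIs (22.3 CPM) against 64 (53.9 CPM), a log2 ratio of -1.28 (-2.10 to -0.52), and their hashtags overlapped.

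Unc93b1 was 479 CPM in B6.SLE123 and 463 CPM in control B cell-like cells, a log2 ratio of 0.05 (0.02 to 0.08) with overlapping hashtags. Cd180 was 149 against 166 CPM, a log2 ratio of -0.16 (-0.22 to -0.10). Myd88 was 25.3 against 19.0 CPM, a log2 ratio of 0.41 (0.25 to 0.57), with hashtags of 20.8 to 30.2 and 16.0 to 23.8 CPM. The Myd88 ratio depended on the cells counted: it was 0.22 (-0.01 to 0.44) in follicular B-like cells, 0.06 in marginal zone B-like cells and 0.14 with every cell thinned to 1000 UMIs. Germinal centre B-like cells held 37.8 CPM of Myd88 in the B6.SLE123 library (122 UMIs in 579 cells) and 11.7 CPM in the control (4 UMIs in 57 cells), a log2 ratio of 1.70 (0.30 to 3.59). Such cells made up 1.87% to 6.69% of this compartment in the B6.SLE123 hashtags and 0.0448% to 1.06% of it in the control, and marginal zone B-like cells 9.85% to 16.0% and 4.36% to 15.7%. The part of these shares in the B cell-like ratios was not tested beyond the subset values given.

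**Figure D4:**
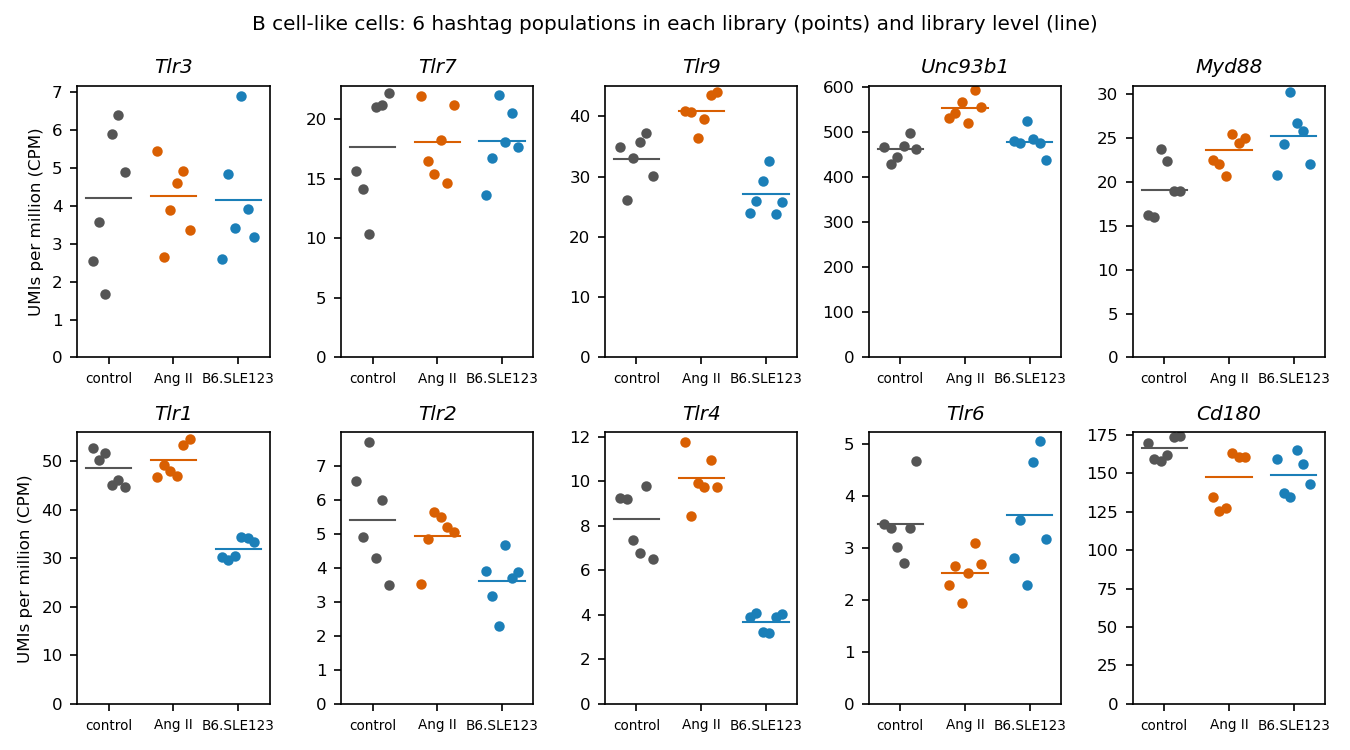
CPM of the 10 members in B cell-like cells; each point is 1 of the 6 hashtag populations of a library and each line the library's level. B6.SLE123 points lie below all control points for Tlr4 and Tlr1, and Ang II points lie above all control points for Unc93b1.

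The Ang II library addresses hormone-induced hypertension in C57Bl/6 mice. Its B cell-like cells had more Unc93b1, and no member differed 2-fold. Tlr9, Myd88 and Tlr4 were higher by library level beyond counting error, with overlapping hashtags. Of the 10 members, 0 were at least 2-fold higher or lower, against 1.08% and 0.486% of 11316 genes. One member, Unc93b1, had all 6 Ang II hashtags above the control, against 7.77% of genes, and 0 had all below, against 4.86%. The counting interval lay above 0 for 4 members, against 30.3% of genes, and below 0 for 2, against 17.2%. The median log2 ratio was 0.04 over the members and 0.06 over all genes tested.

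Unc93b1 was 466, 430, 445, 469, 498 and 462 CPM in the control hashtags and 531, 542, 568, 520, 594 and 557 CPM in the Ang II hashtags. Every Ang II value was above every control value. The library levels were 553 and 463 CPM, a log2 ratio of 0.26 (0.23 to 0.29). The hashtags were also apart in follicular B-like cells, as for 6.52% of genes, with a log2 ratio of 0.27 (0.23 to 0.31). They were apart in marginal zone B-like cells too, as for 1.68% of genes, with a log2 ratio of 0.28 (0.20 to 0.37). It was likewise positive in transitional B-like cells at 0.24 (0.08 to 0.40) and cDC1-like cells at 0.40 (0.08 to 0.73), and negative in neutrophil-like cells at -0.54 (-0.80 to -0.27). Tlr9, its cargo, was 40.9 against 32.9 CPM, a log2 ratio of 0.32 (0.20 to 0.44), with hashtags of 36.4 to 44.0 and 26.1 to 37.3 CPM that overlapped. Tlr7 and Tlr3, its other cargo here, had log2 ratios of 0.03 (-0.14 to 0.21) and 0.01 (-0.34 to 0.38). The control level of Tlr7 joins 10.4 to 15.6 CPM in hashtags where Xist was rare with 21.0 to 22.2 CPM where it was common. Xist was found in no Ang II cell, and the Ang II hashtags, at 14.6 to 22.0 CPM of Tlr7, overlapped both sets.

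Myd88 was 23.7 against 19.0 CPM in Ang II and control B cell-like cells (log2 ratio 0.32, 0.16 to 0.48), Tlr4 was 10.2 against 8.32 CPM (0.29, 0.05 to 0.53) and Tlr6 2.53 against 3.46 CPM (-0.45, -0.89 to -0.02). Their hashtags overlapped. Cd180 was 147 against 166 CPM, a log2 ratio of -0.18 (-0.23 to -0.12), and its Ang II hashtags of 126 to 164 CPM overlapped the control hashtags of 158 to 174 CPM. Tlr1 and Tlr2 had intervals that spanned 0. Both comparisons share the control library, so a low or high control value moves both ratios together.

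**Figure D5:**
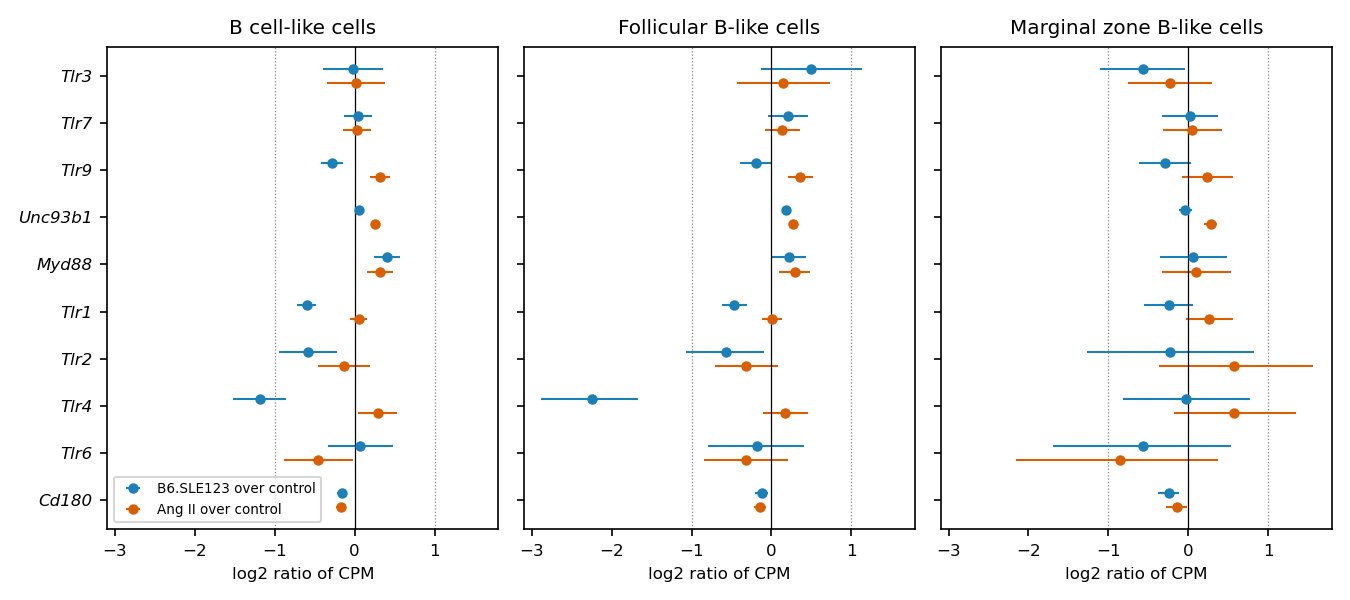
Log2 ratios of CPM over the control library for the 10 members in 3 sets of B cells; bars are exact 95% intervals of counting error and dotted lines mark 2-fold. Tlr4 in B6.SLE123 follicular B-like cells, at -2.25, is the one value past 2-fold in the follicular panel, its value in all B cell-like cells is -1.18 and its marginal zone value is -0.03.

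Among myeloid classes Myd88 was higher in monocyte-like cells of both libraries. Monocyte-like cells held 69.5 CPM in the control (97 UMIs in 395 cells), 125 CPM in the Ang II (127 UMIs in 186 cells) and 134 CPM in the B6.SLE123 library (193 UMIs in 511 cells), log2 ratios of 0.85 (0.46 to 1.25) and 0.95 (0.59 to 1.32). The hashtags ran from 28.1 to 93.3 CPM in the control, from 80.1 to 158 CPM over the 4 Ang II hashtags with enough cells and from 77.3 to 157 CPM in B6.SLE123, and overlapped. cDC1-like cells, whose UMIs were under the minimum of 50 and are given as values only, held 27.6, 70.0 and 79.4 CPM in that order, from 7, 23 and 40 UMIs, with log2 ratios of 1.34 (0.08 to 2.81) and 1.53 (0.35 to 2.93). In neutrophil-like cells Myd88 was 107, 80.9 and 93.6 CPM. Its log2 ratios there were -0.41 (-0.72 to -0.09) in Ang II and -0.20 (-0.52 to 0.13) in B6.SLE123, with overlapping hashtags. In monocyte-like cells 5 members were tested, and the interval lay above 0 for 1 in B6.SLE123, against 14% of genes, and for 3 in Ang II, against 8.6%.

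Monocyte-like cells also held less Cd180 in both libraries, 102 CPM in the control, 72.9 CPM in Ang II and 69.7 CPM in B6.SLE123, log2 ratios of -0.49 (-0.91 to -0.07) and -0.56 (-0.94 to -0.18), with overlapping hashtags. Tlr7 in monocyte-like cells was 78.1 CPM in the control, 106 CPM in Ang II (log2 ratio 0.45, 0.05 to 0.84) and 71.7 CPM in B6.SLE123 (-0.12, with an interval that spanned 0). Neutrophil-like cells held less Unc93b1, 154 CPM in the control, 106 CPM in Ang II and 99.98 CPM in B6.SLE123, log2 ratios of -0.54 (-0.80 to -0.27) and -0.63 (-0.91 to -0.34). Their hashtags ran from 104 to 367, from 79.0 to 280 and from 92.9 to 268 CPM in that order and overlapped widely. In the B6.SLE123 library their Tlr2 was 22.9 against 37.4 CPM (log2 ratio -0.70, -1.31 to -0.09) and their Tlr6 3.67 against 17.9 CPM from 8 and 22 UMIs, under the minimum of 50 (-2.28, -3.66 to -1.06), and the hashtags of both genes overlapped. In neutrophil-like cells the interval lay below 0 for 2 of 4 members tested in B6.SLE123, against 23.7% of genes, and for 2 of 5 in Ang II, against 19.2%.

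Other genes of the pathway were taken from a list of 45, all in the tables, of which 37 had at least 50 UMIs in B cell-like cells of both comparisons. In B6.SLE123 over control 1 was at least 2-fold higher and 1 lower. Tlr12, a profilin sensor that also needs Unc93b1, held 12 UMIs (0.386 CPM) against 60 (2.16 CPM), a log2 ratio of -2.49 (-3.52 to -1.58), with control hashtags of 1.36 to 4.35 and B6.SLE123 hashtags of 0 to 0.760 CPM. Ticam2, which bridges Tlr4 to Ticam1, was 4.21 against 1.84 CPM, a log2 ratio of 1.20 (0.72 to 1.69), with overlapping hashtags. The B6.SLE123 hashtags lay wholly above the control for 2 genes, against 9.88% of all genes, and wholly below for 10, against 11.1%. Above were the endosomal proteases Ctsb at 0.53 (0.44 to 0.62) and Lgmn at 0.47 (0.39 to 0.55). Among those below were the proteases Ctsl at -0.88 (-1.27 to -0.48) and Ctss at -0.22 (-0.25 to -0.19), so the listed proteases went both ways. The kinase Irak1 at -0.36 and the transcription factor Irf3 at -0.34 were also below. The list's median log2 ratio was -0.19 against -0.05 over all genes.

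In Ang II over control none of the 37 was past 2-fold, and 8 were wholly above the control hashtags and 1, Irf3, wholly below, against 7.77% and 4.86% of all genes. The 8 were Irf5 at 0.47 (0.40 to 0.53), a transcription factor activated through Myd88, Ticam1 at 0.55 (0.32 to 0.79), the Tlr3 and Tlr4 adaptor, Slc15a4 at 0.37 (0.29 to 0.45), an endosomal transporter needed for Tlr7 and Tlr9 signalling, Irak2, Rela, Nfkbia, Ctsb and Btk. The list's median was 0.06, as over all genes. Of the receptors outside the member list, Tlr12 held 53 UMIs in Ang II B cell-like cells, beside 89 of the member Tlr6. In the B cell-like cells of each of the 3 libraries Tlr5 had 0 UMIs, and Tlr8, Tlr11 and Tlr13 had at most 4. Their counts in other cell classes were not taken.

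Over 35 class-by-library groups with at least 50 cells, the genes most like each member were sought among 11002 candidates by Pearson's r of log2(CPM + 1), as a description of groups that share libraries and depth. Tlr9 ran closest to Ly86, the partner of Cd180 (r = 0.96), and to Cd180 itself (0.93). Cd180 ran closest to the same gene, Ly86 (0.96). Unc93b1 ran closest to Fgd2 (0.91), Ly86 and Irf5 (0.89 each). Tlr2 ran closest to Nfam1 (0.93), Myd88 to Mapk14 (0.87), Tlr1 to Tank (0.86), Tlr4 to Necap1 (0.82), Tlr7 to A730063M14Rik (0.76), Tlr3 to Dnase1l3 (0.74), a nuclease of dendritic cells and macrophages, and Tlr6 to Kbtbd7 (0.65).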

How the data were processed

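The deposited tables hold UMI counts per gene and hashtag counts per barcode. Per the file headers the authors used Cell Ranger 6.0.0, on mm10 by the submitters' processing notes, and the libraries were 5′ libraries. The counts were used as deposited. Barcodes with over 200 and under 3500 genes, under 15% mitochondrial UMIs and at most 1 hashtag, called by Otsu's threshold on log counts, were kept, which removes doublets between hashtags but not within one. Classes were called by the highest share of marker genes detected, with at least 2 markers for B cells and 3 for other classes. Barcodes of other classes with at least 2 B cell markers were set aside, except plasma cell-like ones. So were B cell-like barcodes with at least 3 markers of another class, other than plasma cells, cDC1 and migratory dendritic cells. Barcodes that joined 2 classes other than B cells were not set aside. Counts were summed by class, library and hashtag and divided by the class total. No test was run with 1 library per group. Intervals are 95% and exact: Poisson for CPM, conditional for ratios, Clopper-Pearson for shares. A count of 0 allows up to 3 counts. Genes needed at least 50 UMIs over both libraries. Scripts used Python 3.11.15, numpy 2.4.6, pandas 2.3.3, scipy 1.17.1 and scikit-image 0.26.0 and were tested on simulated data. The members and lists were chosen with earlier results of these data known. Named genes were all members, pathway genes past 2-fold with hashtags apart (others were named after their values were seen), and the most alike genes among the 3 highest correlations per member. Alternatives changed cell limits, doublet removal, gate, scaling, depth, fold and count limits, and left out each hashtag. The labels give an Ang II dose whose unit is not reported here.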

Additional observations from a re-analysis of the deposited data

How the results depend on the processing

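No paired analysis was possible because each group had 1 library and the hashtags carry no labelled pairing. Of 400 recomputed log2 ratios of members in B cell-like cells, 379 stayed inside the interval of the reported value and 21 moved outside it. The sign changed in 38 of them, all among 6 of the 7 ratios whose interval spanned 0, and in none of the ratios whose interval excluded 0. Tlr4 in B6.SLE123 over control, -1.18, became -1.62 with the cell limits read as UMIs, -1.59 with cells thinned to 1000 UMIs and -2.25 in follicular B-like cells alone. Myd88 in that comparison, 0.41, became 0.17 and 0.14 under the first 2 of these, and Tlr9, -0.28, became -0.06 when thinned. The alternatives of follicular B-like cells alone and of mixed barcodes kept were chosen after seeing the data.

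In B6.SLE123 over control, a fold of 1.5 gave 3 members lower rather than 1, and thinning left 1 member with hashtags apart rather than 2. Pathway genes 2-fold higher went from 1 to 0 with the limits read as UMIs and in follicular B-like cells, and those lower from 1 to 0 when thinned, 3 at a fold of 1.5 and 2 with no limit on low counts. Pathway genes with hashtags apart went from 12 to 6 with the limits read as UMIs, 7 when thinned and 6 in follicular B-like cells. In Ang II over control, members with hashtags apart went from 1 to 2 with the limits read as UMIs, and ran from 1 to 2 when 1 hashtag was left out, with 2 without control C0305, Ang II C0303 or Ang II C0305. With no limit on low counts, 1 pathway gene was 2-fold higher and 2 were lower rather than 0 and 0, and those with hashtags apart went from 9 to 5 when thinned and 5 in follicular B-like cells. The sensor share of 19.1% in the control became 17.7% when thinned and 18.1% in follicular B-like cells, and that of 22.7% in Ang II became 21.7% with the limits read as UMIs. The cause of these shifts was not tested. Cells under 1000 UMIs, which thinning drops, numbered 1497 in the control, 1083 in Ang II and 2225 in B6.SLE123. Depth limits the rarer members most: Tlr6 rested on 96, 89 and 113 UMIs in the control, Ang II and B6.SLE123 B cell-like cells.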

Other observations

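Hashtag populations, which the labels put in no condition, stood apart within each of the 3 libraries for some members. In B cell-like cells, hashtags C0301 to C0303 did not overlap C0304 to C0306 for 3 members in the control, 2 in Ang II and 1 in B6.SLE123, beside 14.7%, 14.4% and 7.12% of all genes with at least 50 UMIs there. In control B cell-like cells, Tlr7 was 15.6, 14.1 and 10.4 CPM in hashtags C0301 to C0303, where Xist was found in 0.165% to 0.386% of cells, and 21.0, 21.1 and 22.2 CPM in C0304 to C0306, where it was found in 49.2% to 51.7%. Within follicular B-like cells of the same library Tlr7 was 12.3, 12.5 and 10.2 CPM in the first 3 hashtags and 17.1, 18.9 and 18.2 CPM in the others. Tlr3, which is not X-linked, had the same order in B cell-like cells, 2.55, 3.57 and 1.67 CPM against 5.88, 6.38 and 4.90 CPM, and in follicular B-like cells it did not, at 2.13, 3.90 and 0.968 CPM against 1.09, 2.75 and 2.27 CPM. Marginal zone B-like cells, where Tlr3 and Tlr7 were higher, made up 4.36% to 8.80% of B cell-like cells in the first 3 hashtags and 10.4% to 15.7% in the others. Within control marginal zone B-like cells both genes kept the order. Tlr3 was 7.26, 12.2 and 8.34 CPM there against 30.3, 19.0 and 19.0 CPM, from 64 UMIs in all. Tlr7 was 29.1, 24.3 and 4.17 CPM against 39.8, 32.6 and 39.4 CPM, from 117 UMIs in all. Tlr1 had the reverse order in control B cell-like cells, 52.7, 50.2 and 51.6 CPM against 45.0, 46.1 and 44.6 CPM. The Ang II hashtags, in which Xist was found in no cell, held 14.6 to 22.0 CPM of Tlr7 in B cell-like cells and overlapped both sets. The difference was not tested.

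Cd180 in Ang II B cell-like cells was 134.8, 125.8 and 127.6 CPM in hashtags C0301 to C0303 and 163.5, 160.5 and 160.4 CPM in C0304 to C0306. In follicular B-like cells it was 117, 112 and 107 CPM and 149, 142 and 151 CPM, and in marginal zone B-like cells, at 201 to 244 CPM, the hashtags did not fall into these sets. Myd88 in Ang II B cell-like cells divided the same way, at 20.6 to 22.5 CPM in C0301 to C0303 and 24.5 to 25.5 CPM in C0304 to C0306, but not in follicular B-like cells, and the other 8 members did not in B cell-like cells. The control hashtags held 158 to 174 CPM of Cd180.

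Tlr1 in B6.SLE123 B cell-like cells was 30.3, 29.6 and 30.4 CPM in C0301 to C0303 and 34.3, 34.1 and 33.3 CPM in C0304 to C0306, the reverse of its order in the control. In marginal zone B-like cells of that library it was 25.9, 35.2 and 29.6 CPM and 47.3, 39.1 and 45.3 CPM, and in follicular B-like cells the sets overlapped. Tlr4 in B6.SLE123 was lower in the first 3 hashtags in follicular B-like cells, from 28 UMIs in all, and higher in them in marginal zone B-like cells, from 34 UMIs in all. Both counts were under the minimum of UMIs set for genes, so these splits are given as values only. Of the genes of that library that met the minimum, the sets were apart for 8.49% in follicular and 10.2% in marginal zone B-like cells. In control follicular B-like cells Tlr4 was higher in the first 3 hashtags, at 9.19 to 10.9 CPM and 6.17 to 8.61 CPM.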
